A study of Mus musculus with 8 samples.

Results

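Antimicrobial proteins of the ocular surface were described in mouse limbus and cornea through 9 genes, Defb1, Camp, Slpi, Reg3g, Pglyrp1, Lcn2, Ltf, S100a8 and S100a9, out of 23420 named genes in the data. They were chosen by name as secreted and neutrophil-type antimicrobial proteins, and the rule uses no measured value. All 9 symbols were found. RNA sequencing compared the limbal rim, the ring of tissue where the cornea meets the sclera and conjunctiva, with the corneal button inside that ring. Both tissues came from wild-type C57BL/6J mice at 8 weeks of age, with no engineered allele and no treatment named in the labels, and tissue of several eyes was pooled before RNA extraction. The labels list 8 samples, 4 per tissue, but the values behind the data resolve into 1 library per tissue. No spread between animals was available, no test was made, and every interval below covers counting error only. PCR copies counted without molecular identifiers are not separate molecules, so these intervals can be too narrow even for counting error.

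The tear film and the epithelium under it hold microbes off with proteins that act in different ways. Beta-defensins and cathelicidins are cationic peptides that disrupt membranes, peptidoglycan recognition proteins and Reg3 lectins bind the bacterial cell wall, and lipocalin 2, lactoferrin and calprotectin keep iron, zinc or manganese from bacteria. Several of these proteins are stored in neutrophil granules or cytosol and are also made by epithelia and by the lacrimal and conjunctival glands. Many of their genes are known targets of NF-kB and of C/EBP factors, which act downstream of microbial sensors and cytokines.

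The promoters of 8 of the 9 genes were matched by symbol in RefSeq for GRCm38.p6, as 300 bases that run from 250 bases before to 50 bases after the annotated start, with the first transcribed base counted as 0. Of these, 4 are printed, those of the peptidoglycan recognition protein and of lipocalin 2, whose reads lay mostly in the limbus, and those of S100a8 and S100a9, whose protein products form 1 complex while their reads differed. They lie at chr7:18884440-18884739 on the plus strand (Pglyrp1), chr2:32387690-32387989 on the minus strand (Lcn2), chr3:90668821-90669120 on the plus strand (S100a8) and chr3:90695672-90695971 on the minus strand (S100a9). The annotated starts are those of RefSeq and can differ from the GENCODE gene spans given below. For Pglyrp1, Slpi and Lcn2 the promoter window lies wholly inside the gene span. Each printed sequence reads 5′ to 3′ on the strand of its gene, and capitals mark matches to an NF-kB, C/EBP or TATA motif on either strand.
Pglyrp1: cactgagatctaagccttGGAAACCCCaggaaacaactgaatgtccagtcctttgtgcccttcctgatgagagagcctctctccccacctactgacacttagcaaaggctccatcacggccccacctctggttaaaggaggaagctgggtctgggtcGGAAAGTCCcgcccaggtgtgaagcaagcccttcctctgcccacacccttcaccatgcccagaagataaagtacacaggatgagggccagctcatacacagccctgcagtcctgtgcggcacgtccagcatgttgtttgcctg
Lcn2: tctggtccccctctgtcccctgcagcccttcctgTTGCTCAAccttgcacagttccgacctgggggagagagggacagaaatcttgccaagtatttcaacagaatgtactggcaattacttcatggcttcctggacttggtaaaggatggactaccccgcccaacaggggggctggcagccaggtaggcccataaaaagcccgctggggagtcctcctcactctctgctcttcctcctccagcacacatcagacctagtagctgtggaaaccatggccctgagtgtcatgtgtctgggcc
S100a8: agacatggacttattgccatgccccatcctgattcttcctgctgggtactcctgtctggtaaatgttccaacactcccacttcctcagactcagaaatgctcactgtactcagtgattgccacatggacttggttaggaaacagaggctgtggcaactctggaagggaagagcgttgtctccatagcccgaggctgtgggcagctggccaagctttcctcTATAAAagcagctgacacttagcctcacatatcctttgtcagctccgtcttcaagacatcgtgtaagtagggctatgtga
S100a9: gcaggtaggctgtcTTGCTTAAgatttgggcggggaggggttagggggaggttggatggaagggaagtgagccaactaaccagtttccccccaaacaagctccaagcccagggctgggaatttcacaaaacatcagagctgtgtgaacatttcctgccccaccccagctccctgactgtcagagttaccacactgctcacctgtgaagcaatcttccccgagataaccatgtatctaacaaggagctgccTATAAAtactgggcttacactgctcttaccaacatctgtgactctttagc

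The motifs searched were GGNNTTTCC for NF-kB, TTGCNNAA for C/EBP, TTCNNNGAA for STAT and TATAAA for the TATA box, on both strands. Pglyrp1 held 2 NF-kB matches, from -232 to -224 and from -93 to -85, and Reg3g held 1 from -122 to -114. A C/EBP match lay at -216 to -209 in Lcn2, at -241 to -234 in Slpi, at -236 to -229 in S100a9 and at -75 to -68 in Ltf. These matches did not overlap one another. A TATA match lay at -30 to -25 in S100a8, at -27 to -22 and again at -161 to -156 in Reg3g, and at 0 to 5 in S100a9, which places the last one on the annotated start itself. No STAT match was found in the 8 windows, and the window of Camp held none of the 4 motifs. Among all 32851 promoters in the reference, 5.82% held the NF-kB motif, 10.8% the C/EBP motif, 8.30% the STAT motif and 13.6% the TATA motif. The matches are descriptions of the sequence only.

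**Figure D1:**
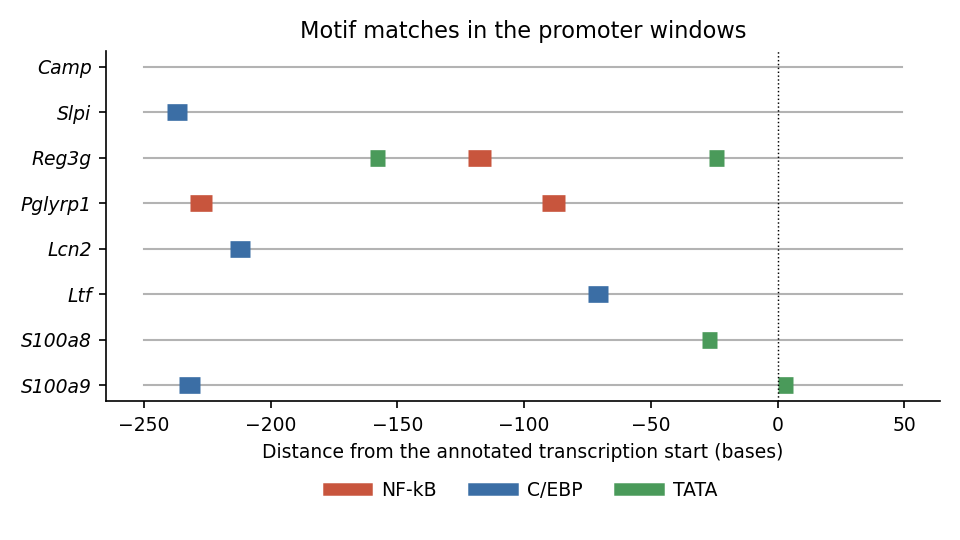
Motif matches in the promoter windows of 8 genes, by distance in bases from the annotated transcription start (dotted line), with boxes coloured by motif. C/EBP matches are seen in Slpi, Lcn2, Ltf and S100a9, NF-kB matches in Pglyrp1 and Reg3g, and none of the motifs in Camp.

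Named genes took 26104317 reads of the corneal library and 21182025 of the limbal one. A level is given as RPM, the reads of a gene per 1000000 reads on named genes, or as RPKM, which is RPM per kilobase of exon and allows genes to be compared. For ratios, reads were divided by size factors of 1.03 and 0.967, and a ratio is always limbus over cornea. A gene was called higher in a tissue when its normalized reads differed at least 2-fold and the exact 95% Clopper-Pearson interval (CI) excluded no difference. A gene was assessed when it had more than 3 reads in at least 1 library, since a count of 0 allows up to 3 reads. The labelled tissues were checked on keratins and other epithelial genes. Krt12, the keratin of corneal epithelium, had 1137735 corneal and 233324 limbal reads, and Krt15, a keratin of basal limbal cells, had 37738 and 353826. Krt4, a conjunctival keratin, was also higher in the limbal library (2138 and 71498 reads), as were 7 of 8 conjunctival epithelial genes in all. Among these 7, Krt19 (1417 and 30740 reads) is a conjunctival keratin that the authors also took as a limbal marker. Fewer cells of a type and less RNA per cell cannot be told apart in such bulk tissue.

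Of the 9 antimicrobial genes, 5 were called higher in the limbus (Lcn2, Slpi, Pglyrp1, S100a8 and Ltf) and 0 higher in the cornea. Defb1 and S100a9 had reads in both libraries without a call, and Camp and Reg3g had no read. For comparison, 18.0% of the 15572 genes assessed were called higher in the limbus and 8.16% were called higher in the cornea. The median of the log2 ratios was 1.89 over the 7 genes with reads and 1.38 with Camp and Reg3g set at 0, against 0.01 over all genes assessed. Scaling to total reads, in place of the size factors, raised every log2 ratio by 0.21 and moved the limbal share of all calls from 68.9% to 80.2%, and the same 5 genes were called. The mean expression in the table fixes the reads of S100a8 alone among the 7 genes, given which size factor belongs to which tissue. The mean itself does not tell that assignment. For the other 6, the pair of read numbers was taken with the help of the authors' fold change and standard error. The side and the size of these 6 ratios thus rest on those columns.

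**Figure D2:**
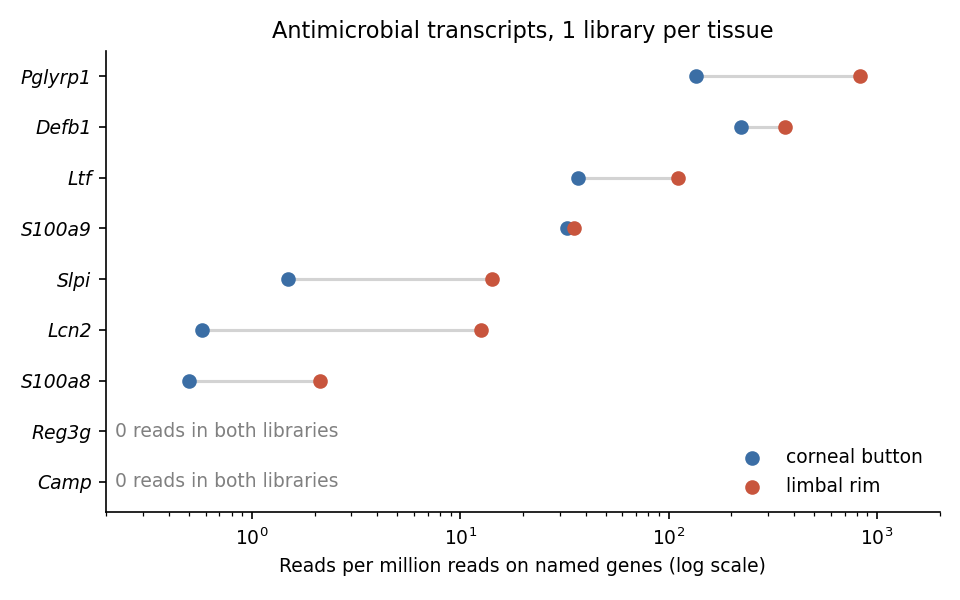
RPM (log axis) for the 9 genes in the corneal button (blue) and the limbal rim (red), 1 library per tissue, with a grey line joining each pair. Pglyrp1 and Defb1 stand highest in both tissues, the points of S100a9 nearly coincide, and Camp and Reg3g have 0 reads in both libraries.

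Defb1 and Camp encode cationic peptides. Defb1 is the beta-defensin that epithelia make without stimulation, and its gene lies on chromosome 8 at 21776599 to 21795185 of GRCm38, plus strand. It had 5787 corneal and 7647 limbal reads, or 222 and 361 RPM. After normalization the limbal level was 1.41-fold the corneal one (log2 ratio 0.50, 95% CI 0.45 to 0.55), beyond counting error and under the 2-fold limit. Per length of exon, Defb1 stood at 254 (cornea) and 414 (limbus) RPKM, in place 211 and 163 among 21751 genes. Among the 42 numbered beta-defensin genes in the data it had the most reads in both tissues, while 36 had no read, 4 others had at most 3 reads in either library, and Defb14 had 41 corneal and 30 limbal reads (log2 ratio -0.35, 95% CI -1.08 to 0.36). Camp, on chromosome 9 at 109847379 to 109849617 (minus strand), encodes the precursor of the mouse cathelicidin CRAMP. It had 0 reads in both libraries, which allows up to 3 reads in each, so a Camp transcript was not detectable at this depth.

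Pglyrp1 and Reg3g encode proteins that bind bacterial peptidoglycan. Pglyrp1, on chromosome 7 at 18871331 to 18890459 (plus strand), had 3550 corneal and 17568 limbal reads, or 136 and 829 RPM. The limbal library was higher by 5.29-fold (log2 ratio 2.40, 95% CI 2.35 to 2.46), and 89.8% of the genes assessed had a lower ratio. Its level per length was 196 (cornea) and 1195 (limbus) RPKM, and in the limbus it was in place 63 of 21751 genes against place 278 in the cornea. The other peptidoglycan recognition proteins had other patterns. Pglyrp4 had 1479 corneal and 1603 limbal reads (log2 ratio 0.21, 95% CI 0.11 to 0.31), and Pglyrp2 and Pglyrp3 had 0 corneal reads and 1 limbal read each. Reg3g, a C-type lectin best known from the intestine, lies on chromosome 6 at 78466269 to 78468872 (minus strand). It had 0 reads in both libraries, as had every one of the 7 Reg genes in the data, with the same upper limit of 3 reads.

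Pglyrp1 and Defb1 exchanged places between the tissues. Per length, Defb1 was 1.30-fold above Pglyrp1 in the cornea, while Pglyrp1 was 2.89-fold above Defb1 in the limbus. The 9 genes together took 429.5 RPM of the corneal library and 1365 of the limbal one. Pglyrp1 gave 31.7% of these reads (cornea) and 60.8% (limbus), and Defb1 gave 51.6% and 26.4%. Both together made up 83.3% of the corneal and 87.2% of the limbal reads, so the sum follows these 2 genes.

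**Figure D3:**
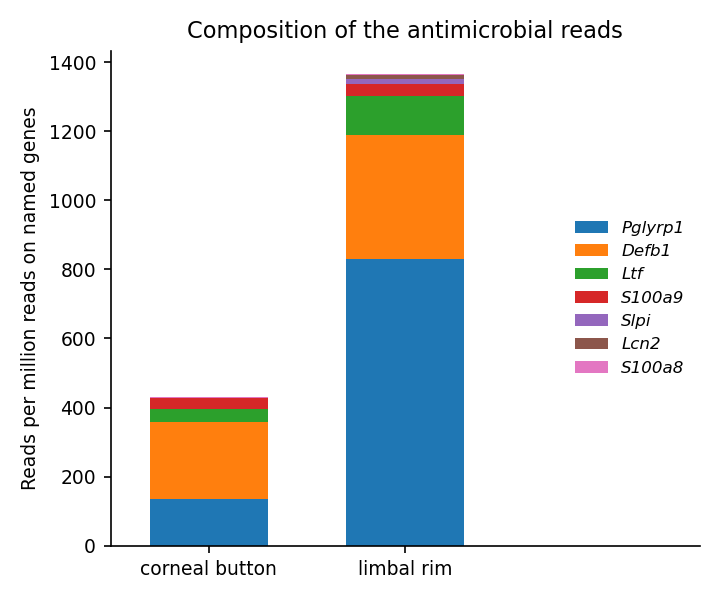
RPM, stacked by gene, in the corneal button and the limbal rim, 1 library each. The corneal stack is 429.5 and the limbal one 1365, and Pglyrp1 (blue) takes 31.7% and 60.8% of it.

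Lcn2, Ltf, S100a8 and S100a9 encode proteins that withhold metals. Lcn2 binds the siderophores by which bacteria gather iron, and it had the highest ratio among the 7 genes. It lies on chromosome 2 at 32384633 to 32388252 (minus strand) and had 15 corneal and 268 limbal reads, or 0.575 and 12.7 RPM. The limbal library was higher by 19.1-fold (95% CI 11.4 to 34.6), a log2 ratio of 4.26 that lay above that of 97.5% of the genes assessed. Its limbal level of 13.8 RPKM was in place 4218 of 21751 genes, below the limbal levels of Pglyrp1 and Defb1. Ltf, on chromosome 9 at 111019271 to 111042767 (plus strand), encodes lactoferrin, an iron-binding protein of tears and of neutrophil granules. Ltf had 959 corneal and 2338 limbal reads, a difference of 2.61-fold (log2 ratio 1.38, 95% CI 1.27 to 1.49). Per length, Ltf stood at 13.4 (cornea) and 40.2 (limbus) RPKM, and was 21.3-fold above Lcn2 in the cornea and 2.91-fold above it in the limbus.

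S100a8 and S100a9 encode the subunits of calprotectin, which binds zinc and manganese, and both genes lie on chromosome 3, at 90668978 to 90670035 (plus strand) and 90692632 to 90695721 (minus strand). S100a8 had 13 corneal and 45 limbal reads, 3.70-fold higher in the limbus (log2 ratio 1.89, 95% CI 0.97 to 2.90), an interval that reaches just under 2-fold. S100a9 had 850 corneal and 745 limbal reads (log2 ratio -0.09, 95% CI -0.24 to 0.05). This difference was within counting error, and its sign turned to 0.11 with scaling to total reads. Per length, S100a8 stood at 1.02 (cornea) and 4.37 (limbus) RPKM and S100a9 at 62.7 and 67.8 RPKM. The genes of the subunits were thus read at unequal levels, S100a9 being 61.2-fold above S100a8 in the cornea and 15.5-fold above it in the limbus.

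Slpi encodes the secretory leukocyte protease inhibitor, a protein of the WAP (whey acidic protein) family that blocks neutrophil elastase and cathepsin G and also acts on bacteria. It lies on chromosome 2 at 164354070 to 164389095 (minus strand), where Mir7678 overlaps its exons on the same strand, so reads of both cannot be told apart. Slpi had 39 corneal and 302 limbal reads, or 1.49 and 14.3 RPM. The limbal library was higher by 8.28-fold (95% CI 5.92 to 11.9), a log2 ratio of 3.05 that exceeded that of 93.5% of the genes assessed. Of 17 other WAP genes in the data, 7 could be assessed, and 5 of these were called for the limbus and 0 for the cornea. Wfdc2 had 1583 corneal and 3034 limbal reads (log2 ratio 1.03, 95% CI 0.95 to 1.12). Wfdc18, a secreted WAP protein, had 2 and 594 reads (log2 ratio 8.31, 95% CI 6.45 to 11.36).

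From highest to lowest ratio the order was Lcn2, Slpi, Pglyrp1, S100a8, Ltf, Defb1 and S100a9. The intervals of Lcn2 and Slpi overlapped, as did those of Pglyrp1 and S100a8 and those of S100a8 and Ltf, so these neighbours were not told apart by counting. The intervals of Slpi and Pglyrp1, of Ltf and Defb1, and of Defb1 and S100a9 did not overlap. The genes with the highest ratios were not those with the most reads, as Lcn2 and Slpi had 268 and 302 limbal reads beside the 17568 of Pglyrp1.

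**Figure D4:**
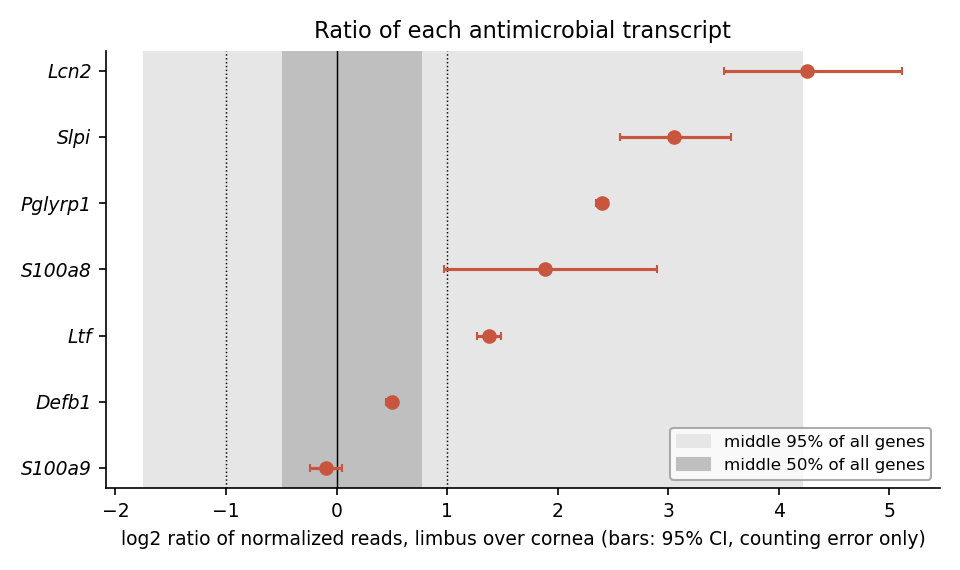
Log2 ratio of normalized reads, limbus over cornea, for the 7 genes with reads, with bars for the 95% interval (counting error only), dotted lines at 2-fold and grey bands for the middle 50% and 95% of the genes assessed. Lcn2 at 4.26 lies just outside the wider band, and Defb1 at 0.50 and S100a9 at -0.09 lie inside the narrower one.

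Other secreted antimicrobial and mucosal defence genes were read from a list of 48, of which 47 were in the data and 25 could be assessed. Of these, 15 were called for the limbus, 1 for the cornea and 9 for neither, and the median log2 ratio was 1.81, with genes at 0 in a library set to 3 reads there. Apod, a lipocalin that carries small lipids, had the most reads, 5895 corneal and 16208 limbal ones (log2 ratio 1.55, 95% CI 1.51 to 1.60). Rnase4, a secreted ribonuclease, had 261 and 1540 reads (log2 ratio 2.66, 95% CI 2.47 to 2.85). Sftpd, the collectin surfactant protein D, had 1 corneal and 218 limbal reads (log2 ratio 7.86, 95% CI 5.37 to 13.17). S100a7a, of the psoriasin family of S100 proteins, was the gene called for the cornea, with 1608 corneal and 193 limbal reads (log2 ratio -2.96, 95% CI -3.19 to -2.75), and it is named although the rule for named genes did not select it. A further 22 genes of the list had at most 3 reads in both libraries, 15 of them none.

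Sensors and signals that act upstream of these genes were read from 2 further lists. Of 22 sensors and adaptors, 21 could be assessed, of which 5 were called for the limbus, 1 for the cornea and 15 for neither, with a median log2 ratio of 0.29. These are 23.8% and 4.76% of the 21, beside 18.0% and 8.16% of all genes assessed, and scaling to total reads gave 8 limbal calls in place of 5. Nod2, an intracellular sensor of bacterial peptidoglycan, had 44 corneal and 212 limbal reads (log2 ratio 2.36, 95% CI 1.89 to 2.87). The adaptor Myd88 had 1060 and 1214 reads (log2 ratio 0.29, 95% CI 0.17 to 0.41), and Tlr5, the receptor of flagellin, had 964 and 1041 (0.21, 95% CI 0.08 to 0.33). The 30 cytokines, cytokine receptors and transcription factors gave 25 genes to assess, with 2 called for the limbus, 3 for the cornea and 20 for neither, and a median of 0.28. Limbal and corneal calls were 8% and 12% of the 25. The balance of these calls turned with scaling to total reads, which gave 6 for the limbus and 1 for the cornea, and a 1.5-fold limit gave 8 for the limbus. Cebpd, a C/EBP factor, had 107 corneal and 548 limbal reads (log2 ratio 2.45, 95% CI 2.15 to 2.77), and the interleukin-1 receptor Il1r1 had 463 and 1323 (1.61, 95% CI 1.46 to 1.77). The epithelial alarmin Il1a lay the other way, with 1913 corneal and 665 limbal reads (log2 ratio -1.43, 95% CI -1.56 to -1.30), as did Il36a with 239 and 97 (-1.21, 95% CI -1.56 to -0.86). Stat3 had 4249 and 4067 reads (log2 ratio 0.03, 95% CI -0.03 to 0.09). Among the NF-kB genes, Nfkbiz had 4007 and 3006 reads (-0.32, 95% CI -0.39 to -0.25) and Nfkb1 had 2102 and 2249 (0.19, 95% CI 0.11 to 0.28). The C/EBP genes Cebpa and Cebpb, which the rule for named genes did not select, had log2 ratios of 0.79 and 0.95 without a call. Il6 and Il22, cytokines that induce several of these proteins elsewhere, had 0 reads in both libraries, and Il17a and Il17f had 0 corneal reads and 2 limbal reads each. These 4 are named although the rule for named genes did not select them.

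Receptors and targets of the 9 proteins were read from a list of 18 genes, of which 13 could be assessed, 5 were called for the limbus, 0 for the cornea and 8 for neither. Limbal calls were 38.5% of the 13, beside 18.0% of all genes assessed. The lipocalin 2 receptors Slc22a17 and Lrp2 were among the 5. Slc22a17 had 84 corneal and 416 limbal reads (log2 ratio 2.40, 95% CI 2.06 to 2.76), and Lrp2, or megalin, had 1 and 14 (3.90, 95% CI 1.19 to 9.31). Ager, a receptor of S100 proteins, had 10 and 31 reads (log2 ratio 1.73, 95% CI 0.66 to 2.92). Tlr4, another receptor on the list, lay the other way without a call, with 688 and 438 reads (log2 ratio -0.56, 95% CI -0.73 to -0.38). It is named although the rule for named genes did not select it. Bsg, a receptor of S100A9, had 8464 and 8909 reads (log2 ratio 0.17, 95% CI 0.13 to 0.21), and Lrp1, which takes up lactoferrin, had 3499 and 4818 (0.56, 95% CI 0.49 to 0.62). Elane and Ctsg, which encode the neutrophil proteases that Slpi blocks, had 0 reads in both libraries.

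Since several of the 9 proteins are also carried by neutrophils, a list of 20 neutrophil genes was read beside them, of which 19 were in the data. The granule genes Ngp, Elane, Mpo, Ctsg and Mmp8 had 0 reads in both libraries, as had Fpr2 and Chil3, and Prtn3, Retnlg, Fpr1 and Cd177 had 0 reads in the cornea and at most 2 in the limbus. Of the 8 that could be assessed, 3 were called for the limbus and 1 for the cornea, with a median log2 ratio of 1.26. These are 37.5% and 12.5% of the 8, beside 18.0% and 8.16% of all genes assessed, and rest on few genes. Csf3r, the receptor of granulocyte colony-stimulating factor, had 1 corneal and 56 limbal reads (log2 ratio 5.90, 95% CI 3.37 to 11.23), and the decoy receptor Il1r2 had 211 and 2476 (3.65, 95% CI 3.45 to 3.86). Padi4 lay the other way, with 2607 and 350 reads (log2 ratio -2.80, 95% CI -2.97 to -2.64). Summed, the list gave 338 (cornea) and 554 (limbus) RPM, most of it from the integrin gene Itgam, which macrophages also use, with 6003 and 8793 reads. Itgam stood at 230 and 415 RPM, and Padi4 gave 99.9 RPM of the corneal sum. The leukocyte gene Ptprc stood at only 1.15 and 3.40 RPM and the macrophage gene Csf1r at 2.83 and 22.0 RPM. The sum is thus not a measure of neutrophils, and the source of the Itgam reads was not tested.

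Genes of other cell types differed between the libraries along with the antimicrobial genes. Of 14 macrophage genes, 12 were called for the limbus and 0 for the cornea, with a median log2 ratio of 2.64 and a sum of 89.1 (cornea) and 266 (limbus) RPM. Among them the complement gene C1qa had 64 and 543 reads (log2 ratio 3.18, 95% CI 2.80 to 3.58) and Lyz2, the macrophage lysozyme, had 241 and 1045 (2.21, 95% CI 2.01 to 2.42). The 8 conjunctival epithelial genes summed to 3788 and 15628 RPM, with a median log2 ratio of 3.67. Of the 7 goblet cell and gland genes assessed, out of 14, 2 were called for the limbus and 1 for the cornea, and the list summed to 5148 (cornea) and 2652 (limbus) RPM. These calls are 28.6% and 14.3% of the 7, beside 18.0% and 8.16% of all genes assessed. Aqp5, a water channel of glands and also of corneal epithelium, had the most reads and was the corneal call, with 132834 and 54569 reads (log2 ratio -1.19, 95% CI -1.20 to -1.17), a call lost with scaling to total reads. Fcgbp, a mucus protein, had 1483 and 912 reads (log2 ratio -0.61, 95% CI -0.73 to -0.49). Agr2 had 46 and 618 reads (log2 ratio 3.84, 95% CI 3.41 to 4.31). The gland peroxidase Lpo had 0 and 28 (log2 ratio 3.32, 95% CI 1.62 to 5.68, with the corneal count set to 3 reads). Muc5ac, which defines conjunctival goblet cells, had 1 read in each library, and the lacrimal gene Pip had 0 corneal reads and 1 limbal read. Of the 8 corneal epithelial genes, 5 were called for the cornea and 0 for the limbus, and of the 6 limbal epithelial genes assessed, 5 were called for the limbus and 1, Trp63, for the cornea, a call also lost with scaling to total reads. Of 7 genes of epithelial stress or cornification assessed, 4 were called for the limbus and 0 for the cornea, among them Krt16 with 528 and 2613 reads (log2 ratio 2.40, 95% CI 2.27 to 2.54), while Krt6a had 88825 and 85861 (0.05, 95% CI 0.03 to 0.06). Genes of eyelid epidermis were low, at 14.1 and 21.1 RPM in sum, and neither of the 2 assessed was called. The part of these cell types in the limbal reads of the antimicrobial genes was not tested.

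**Figure D5:**
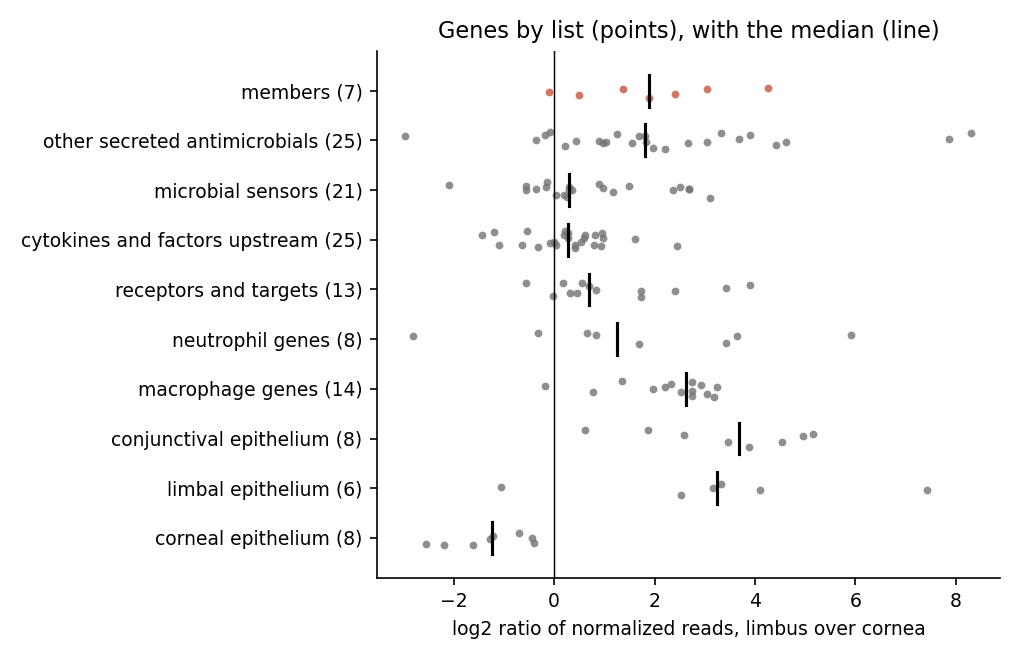
Log2 ratio of normalized reads, limbus over cornea, of each gene assessed in 10 lists, the number of genes in parentheses, with 1 point per gene and a line at the median; genes with 0 reads in 1 library are drawn with that library set to 3 reads. The antimicrobial genes (red, labelled members) have a median of 1.89, near the 1.81 of other secreted antimicrobials, while sensors and upstream factors centre near 0.29 and 0.28.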

How the data were processed

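Tissue of corneal buttons and limbal rims was pooled, and a stranded library of total RNA was made and sequenced from both ends (Illumina NextSeq). The authors used CLC Genomics Workbench 20 to map reads to GRCm38 (mm10), and they name TMM (trimmed mean of M-values) as their scaling. Whether counting used strand is not given in the sources used here. They deposited 1 table with a mean normalized signal per gene and a log2 fold change between the tissues with its standard error. It also holds p-values before and after adjustment. The table is labelled as output of DESeq, so its means need not carry TMM scaling. The values of the size factors used here follow from those means, which do not tell the tissue that each belongs to. TMM computed from the derived reads raised every log2 ratio by 0.017 over the main setting. The authors' log2 fold changes and standard errors were used only to choose among the read pairs that the mean allows, and are not reported. The p-values were not used.

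Each deposited mean of the normalized signal was split into whole reads of 2 libraries, with 109 corneal reads equal to 102 limbal ones. The mean allowed 1 pair for 6143 of 17442 genes with a mean above 0. For the others, a standard error was predicted for each pair from the authors' fold change, its size and its sign. The pair nearest to the deposited standard error was taken. For 89 genes, none among the 9, another pair came within 10 times the smallest miss. There the pair was taken whose dispersion (variance beyond counting error) was nearest to that of 15 genes of like mean and ratio. Another 41 genes with a fold change near 0 were taken as the most even pair. The 17484 rows with no gene name stayed out. Read numbers are thus derived values. On simulated data, both read numbers were found for 17048 of 17049 genes. The simulation used the model that the method assumes, so it cannot show that the deposited values follow that model. Values per sample were not analysed here.

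Positions and exon lengths are from GENCODE M21, matched by symbol for 21751 genes. Promoters are from RefSeq, and the NF-kB motif was shortened by 1 base after a first search. The genes and lists were chosen with earlier results of these data known. Genes named from a list are the 4 with the most reads, up to 4 more with the largest ratio among those called, and defining genes at 0, and not every gene so selected is described. Alternatives were scaling to total reads, TMM from the reads, a pseudocount of 1, calls at 1.5-fold and 4-fold, other filters and the read pairs of the mean alone. Python 3.11.15 was used with numpy 2.4.6, scipy 1.17.1, pandas 2.3.3 and matplotlib 3.10.9.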

Additional observations from a re-analysis of the deposited data

How the results depend on the processing

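The number of genes higher in the limbus stayed at 5 under scaling to total reads, TMM and a 1.5-fold limit, and these were the same genes. At a 4-fold limit it was 3 (Lcn2, Slpi and Pglyrp1). Of all genes assessed, 20.8% were called for the limbus with total reads, 18.3% with TMM and 22.6% at 1.5-fold. This share was 12% at 4-fold, beside 18% in the main setting. The median log2 ratio of the 9 genes, 1.38, became 1.59 with total reads, 1.89 with a mean of at least 10 and 1.81 with no filter and a pseudocount of 1. Over all genes, calls for the limbus numbered 1869 at 4-fold and 4417 with no filter and a pseudocount of 1, and calls for the cornea 797 with total reads, 2916 at 1.5-fold and 230 at 4-fold. Without the fold change and standard error, the lowest read pair that the mean allows gave log2 ratios of -1.295 for Slpi, -9.76 for Pglyrp1, -1.77 for Lcn2 and -5.06 for Ltf, and the highest gave 3.05, 8.49, 4.26 and 5.28. The direction and size of these 4 ratios therefore rest on the authors' columns. The reads of S100a8 are fixed by the mean once each size factor is assigned to a tissue, which the mean itself does not tell. Of the 32 counts over lists, 5 moved by over 1.5 times with total reads (limbal calls of sensors from 5 to 8 and of cytokines and factors from 2 to 6, and corneal calls of cytokines and factors from 3 to 1 and of the gland and limbal epithelial lists from 1 to 0 each), 3 at 1.5-fold, 6 at 4-fold and 0 with TMM. No paired analysis was possible because the data give values per tissue and not per numbered sample, and leaving out a replicate was not possible for the same reason. With 13 to 45 reads, S100a8 and the corneal level of Lcn2 (15 reads) are the values most limited by depth.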
